A study of Mus musculus with 12 samples.

Results

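The Lin28 and let-7 axis was examined through 8 named genes, Lin28a, Lin28b, Hmga2, Igf2bp1, Igf2bp2, Igf2bp3, Trim71 and Mycn. All probe sets annotated to them on an Affymetrix mouse genome array were taken, which gave 22 of 45037 probe sets that are not array controls. Of the genes, 7 had at least 1 probe set: Igf2bp3 had 6, Hmga2 and Igf2bp1 had 4 each, Mycn had 3, Lin28a and Trim71 had 2 each, and Lin28b had 1. No probe set used here was listed with Igf2bp2, so that gene was not analysed here. The genes were chosen by name, from a reading of earlier results of these same arrays. Which values led to the choice is not recorded, so every level and difference below, and each p-value beside it, describes a probe set and is not independent support.

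The study looked for genes downstream of Dlx5, a homeodomain transcription factor needed for the dorsal inner ear, and profiled 12 samples on 1 array each. Of these, 8 came from mouse otic vesicles, the epithelial sacs from which the inner ear forms, at embryonic stage E10.5 or E10. Each stage was represented by 2 arrays of vesicles labelled Dlx5-null and 2 of wild-type vesicles, each array holding a pool of 4 to 8 vesicles treated with 1 mg/ml dispase to loosen the attached mesenchyme. The other 4 came from independent cultures of 2B1, an otic vesicle cell line grown at 32 °C with gamma-interferon, 2 of them transiently transfected with Dlx5 and GFP and 2 with a vector carrying GFP only, all then differentiated for 4 days at 37 °C with the interferon withdrawn. The labels do not give the null allele, the strain or how many litters made up a pool.

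Values are deposited log2 levels, so a difference of 1 is a doubling. The targeted gene went against the labels in vesicles. At E10.5 the Dlx5 probe set read 7.97 and 7.97 in labelled-null vesicles, against 6.12 and 6.11 in wild-type vesicles. At E10 it read 7.27 and 8.02 in labelled-null vesicles, against 6.20 and 6.30 in wild-type vesicles. Over both stages the labelled-null vesicles were higher by 1.62 (SE 0.18, limma adjusted p = 0.0512). Whether that probe set lies inside the deleted part of the gene is not given in the sources used here, and "labelled-null" is used throughout. In 2B1 cells the same probe set read 5.14 and 4.80 with Dlx5 and 4.66 and 4.79 with empty vector (difference 0.24, SE 0.18, limma adjusted p = 0.595). The 2 replicate 1 arrays at E10 stood apart, with SDs of log2 values over probe sets of 2.33 in labelled-null and 2.32 in wild-type vesicles, against 2.38 to 2.47 on the other vesicle arrays. Eif2s3y, a Y-linked gene whose level in a pool follows its share of male embryos, ranged from 3.21 to 7.04 over the vesicle arrays. The otic epithelial genes Oc90 and Sox10 were at 10.75 to 13.28 and 11.13 to 12.32 in vesicles. In 2B1 cells, whose arrays appear to have been normalized separately, they were at 5.67 to 6.17 and 6.53 to 7.17. Sox10 was read from a different probe set in 2B1 cells than in vesicles. Fbxo2, another otic epithelial marker, was at 9.36 to 9.68 in 2B1 cells and 8.99 to 10.81 in vesicles. The remaining otic epithelial markers used here read lower in 2B1 cells than in vesicles.

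Lin28 proteins bind RNA and hold back the let-7 family of microRNAs, which accumulate as tissues mature. Lin28a attaches to the let-7 precursor and recruits uridylyltransferases, whose tail of uridines marks the precursor for decay. Mature let-7 in turn represses mRNAs that include Lin28a, Lin28b, Hmga2, Mycn, Trim71 and the Igf2bp genes, so that the axis works as a switch between fetal and later states, first found in worms with mistimed cell lineages. In the mouse cochlea, Lin28b and let-7 are known to act in opposite ways on progenitor cells. The arrays measured mRNAs and gave no level of mature let-7.

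The let-7 family sequences are shown because their shared seed, bases 2 to 8, is what pairs with the mRNAs named above. They are mature mouse sequences from RefSeq (GRCm38.p6), with the seed in capitals.
let-7a-5p: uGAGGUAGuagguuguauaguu
let-7b-5p: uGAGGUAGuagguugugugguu
let-7c-5p: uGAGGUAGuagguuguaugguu
let-7d-5p: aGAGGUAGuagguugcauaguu
let-7e-5p: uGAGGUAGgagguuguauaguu
let-7f-5p: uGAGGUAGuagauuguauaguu
let-7g-5p: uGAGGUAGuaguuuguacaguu
let-7i-5p: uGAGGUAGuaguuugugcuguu
let-7k: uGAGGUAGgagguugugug
miR-98-5p: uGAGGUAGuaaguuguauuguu
let-7j: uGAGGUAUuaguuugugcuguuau
The first 10 share 1 seed, and let-7j has another. Over the 1674 distinct mature sequences in that table, 11 begin with the shared seed at base 2 (0.657%).

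Precursors differ in the site that the zinc knuckles of Lin28 recognise, the letters GGAG in the loop. Below, the precursor of let-7g (chr9:106178840-106178927, + strand) has GGAG between its arms, in capitals, and that of let-7b (chr15:85707319-85707403, + strand) has none.
Mirlet7g: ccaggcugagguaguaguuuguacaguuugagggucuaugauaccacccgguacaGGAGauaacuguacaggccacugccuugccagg
Mirlet7b: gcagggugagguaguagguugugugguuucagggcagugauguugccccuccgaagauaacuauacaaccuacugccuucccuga
GGAG was found between the arms of 8 of 11 let-7 and miR-98 precursors (72.7%), and of 52 of 644 precursors with both arms in the table (8.1%). The match was to these 4 letters on the precursor strand, and it describes the sequences only.

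Lin28a was the member that fell furthest between the stages. On probe set 1437752_at it read 10.46 and 10.22 in labelled-null vesicles and 10.49 and 10.57 in wild-type vesicles at E10.5. At E10 it read 11.96 and 11.47 in labelled-null vesicles and 12.74 and 12.50 in wild-type vesicles. All 4 arrays at E10.5 lay below all 4 at E10, with means of 10.43 ± 0.15 at E10.5 and 12.17 ± 0.57 at E10 (SD, n = 4 each). It fell by 1.73 on the log2 scale (SE 0.18, limma adjusted p = 0.00205 over 33775 probe sets tested), a level 3.32-fold lower at E10.5. Ranked by the size of the fall, this probe set was number 29 of 33775.

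The second Lin28a probe set, 1421749_at, moved the same way with a wider spread. It read 10.17 and 9.96 in labelled-null and 10.27 and 10.38 in wild-type vesicles at E10.5, against 12.53 and 10.63 in labelled-null and 12.31 and 11.65 in wild-type vesicles at E10. The stages again did not overlap, and the labelled-null arrays at E10 were 1.90 apart on this probe set. It fell by 1.58 (SE 0.35, limma adjusted p = 0.0257), or 3-fold, rank 42 of 33775. This call was lost when 1 array was left out: the limma adjusted p was 0.0674 or 0.0756 without either labelled-null E10.5 array (replicate 1 or 2), 0.0950 or 0.0825 without either wild-type E10.5 array (replicate 1 or 2) and 0.0556 without wild-type E10 replicate 1. Without both E10 replicate 1 arrays, the differences were -1.55 for 1437752_at and -0.94 for 1421749_at (limma adjusted p = 0.00624 and 0.0190).

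**Figure D1:**
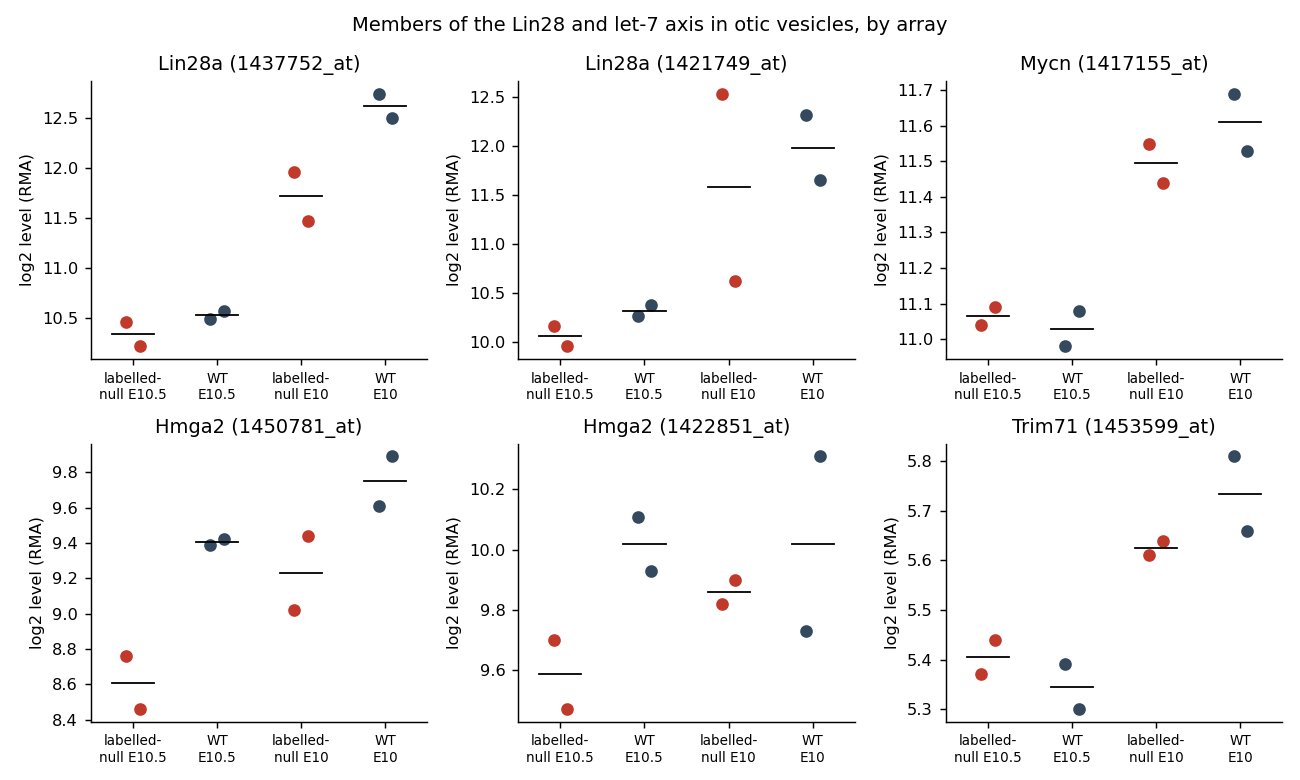
Log2 levels (RMA) of 6 member probe sets on the 8 vesicle arrays, with 1 point per array and a line at the mean of each group of 2. Each panel has its own scale, which does not begin at 0. Both Lin28a probe sets, Mycn 1417155_at and Trim71 1453599_at have all 4 E10.5 arrays below all 4 E10 arrays, and the Hmga2 probe sets overlap between stages.

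Within each genotype, the stage difference of Lin28a on 1437752_at was -1.38 in labelled-null vesicles (SE 0.21, limma adjusted p = 0.0712) and -2.09 in wild-type vesicles (SE 0.21, limma adjusted p = 0.0181). On 1421749_at it was -1.51 in labelled-null and -1.66 in wild-type vesicles (SE 0.53 each, limma adjusted p = 0.313 and 0.170). The gap between these differences is the interaction, which was 0.715 on 1437752_at (SE 0.30, 95% interval 0.02 to 1.41, limma unadjusted p = 0.0446, adjusted p = 1) and 0.14 on 1421749_at (SE 0.75, limma adjusted p = 1). None of the 33775 probe sets passed the interaction test in limma, 0% by that rule, and 702 had an unadjusted p under 0.05 (2.08%).

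Lin28b, the paralog of Lin28a, read 2.41 and 2.19 in labelled-null and 2.39 and 2.60 in wild-type vesicles at E10.5, against 2.53 and 2.43 in labelled-null and 2.59 and 2.41 in wild-type vesicles at E10. These values lay in the lowest 2.2 percent of their arrays, in both stages and genotypes. Its single probe set was therefore below the filter on dim probe sets and was not tested, and a level that low on 1 probe set does not say that the gene was off.

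Trim71, an RNA-binding ubiquitin ligase known as LIN-41 in the worm, had lower values at E10.5 on both probe sets, and neither passed the test. On 1453599_at it read 5.37 and 5.44 in labelled-null and 5.39 and 5.30 in wild-type vesicles at E10.5, against 5.61 and 5.64 in labelled-null and 5.81 and 5.66 in wild-type vesicles at E10. The stages did not overlap on this probe set, with a difference of -0.30 (SE 0.11, limma adjusted p = 0.109). On 1456673_at the stages overlapped and the difference was -0.35 (SE 0.15, limma adjusted p = 0.187). Without labelled-null E10 replicate 2 it was -0.48 and passed (limma adjusted p = 0.0390), and without both E10 replicate 1 arrays it was -0.155 (limma adjusted p = 0.465).

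Mycn, a Myc family transcription factor of progenitor cells and a known let-7 target, fell on 1 of its 3 probe sets. On 1417155_at it read 11.04 and 11.09 in labelled-null and 10.98 and 11.08 in wild-type vesicles at E10.5, against 11.55 and 11.44 in labelled-null and 11.69 and 11.53 in wild-type vesicles at E10. The stages did not overlap, and replicates of 1 group were at most 0.16 apart. It fell by 0.505 (SE 0.11, limma adjusted p = 0.0234), or 1.42-fold, rank 1963 of 33775. The other Mycn probe sets, 1425923_at and 1425922_a_at, lay between -0.05 and 0.05 (limma adjusted p = 0.818 and 0.883), so the probe sets of this gene disagreed. Both were dimmer, with vesicle means of 6.90 and 5.92 against 11.30 for 1417155_at.

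The Mycn call also rested on single arrays. Its limma adjusted p was 0.0746 or 0.0581 without either labelled-null E10.5 array (replicate 1 or 2), 0.110 or 0.0924 without either wild-type E10.5 array (replicate 1 or 2) and 0.0610 without labelled-null E10 replicate 1. Without both E10 replicate 1 arrays it was 0.0343, with a difference of -0.44. Within genotypes the difference was -0.43 in labelled-null and -0.58 in wild-type vesicles (SE 0.16 each).

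Hmga2, an architectural chromatin protein of fetal and tumour cells and a much-studied let-7 target, had lower values at E10.5 on all 4 probe sets, and none passed the test. On 1450781_at it read 8.76 and 8.46 in labelled-null and 9.39 and 9.42 in wild-type vesicles at E10.5, against 9.02 and 9.44 in labelled-null and 9.61 and 9.89 in wild-type vesicles at E10. The stages overlapped, with a difference of -0.48 (SE 0.15, limma adjusted p = 0.0705). On 1422851_at, 1450780_s_at and 1446196_at the differences were -0.14, -0.27 and -0.35 (limma adjusted p = 0.605, 0.263 and 0.241). Without both E10 replicate 1 arrays, 1450781_at passed with a difference of -0.66 (limma adjusted p = 0.0234), and with quantile normalization it and 1450780_s_at passed, with differences of -0.59 and -0.38 (limma adjusted p = 0.00777 and 0.0492).

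The Igf2bp genes encode RNA-binding proteins that hold and stabilise mRNAs in fetal tissue. Igf2bp3 had lower values at E10.5 on all 6 probe sets, with differences from -0.45 to -0.19, and none passed (limma adjusted p = 0.147 to 0.435). Its 1422611_s_at passed with quantile normalization, and this probe set and 1422610_s_at passed without both E10 replicate 1 arrays. The probe set with the largest difference, 1453957_a_at, read 5.83 and 5.24 in labelled-null and 5.89 and 6.21 in wild-type vesicles at E10.5, against 6.11 and 6.26 in labelled-null and 6.10 and 6.49 in wild-type vesicles at E10. Its stages overlapped, and labelled-null E10.5 replicate 2 was the lowest array.

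Igf2bp1 was close to level between the stages. Its brightest probe set, 1449210_at, read 11.67 and 11.68 in labelled-null and 11.70 and 11.63 in wild-type vesicles at E10.5, against 11.82 and 11.81 in labelled-null and 11.72 and 11.76 in wild-type vesicles at E10. The 4 arrays at E10.5 lay below the 4 at E10, with a mean difference of -0.11 (SE 0.10, limma adjusted p = 0.532). The 4 Igf2bp1 probe sets had differences from -0.17 to 0.15, 2 lower and 2 higher.

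Over all tested members, 3 of 21 probe sets passed the stage test, all lower at E10.5, and none passed higher. Over the whole array 9.37% of 33775 probe sets passed, 4.58% lower and 4.8% higher. At an unadjusted limma p under 0.05 there were 7 members of 21, against 26.1% of all. Of the members, 18 of 21 were lower by any size, against 53.7% of all probe sets, and their median difference was -0.24, against -0.03 over all. The E10.5 arrays lay wholly below the E10 arrays on 5 member probe sets, against 8.68% of all tested. Probe sets of 1 gene share that gene's RNA, so these counts are not counts of independent genes, and nothing particular to the members is read from them.

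**Figure D2:**
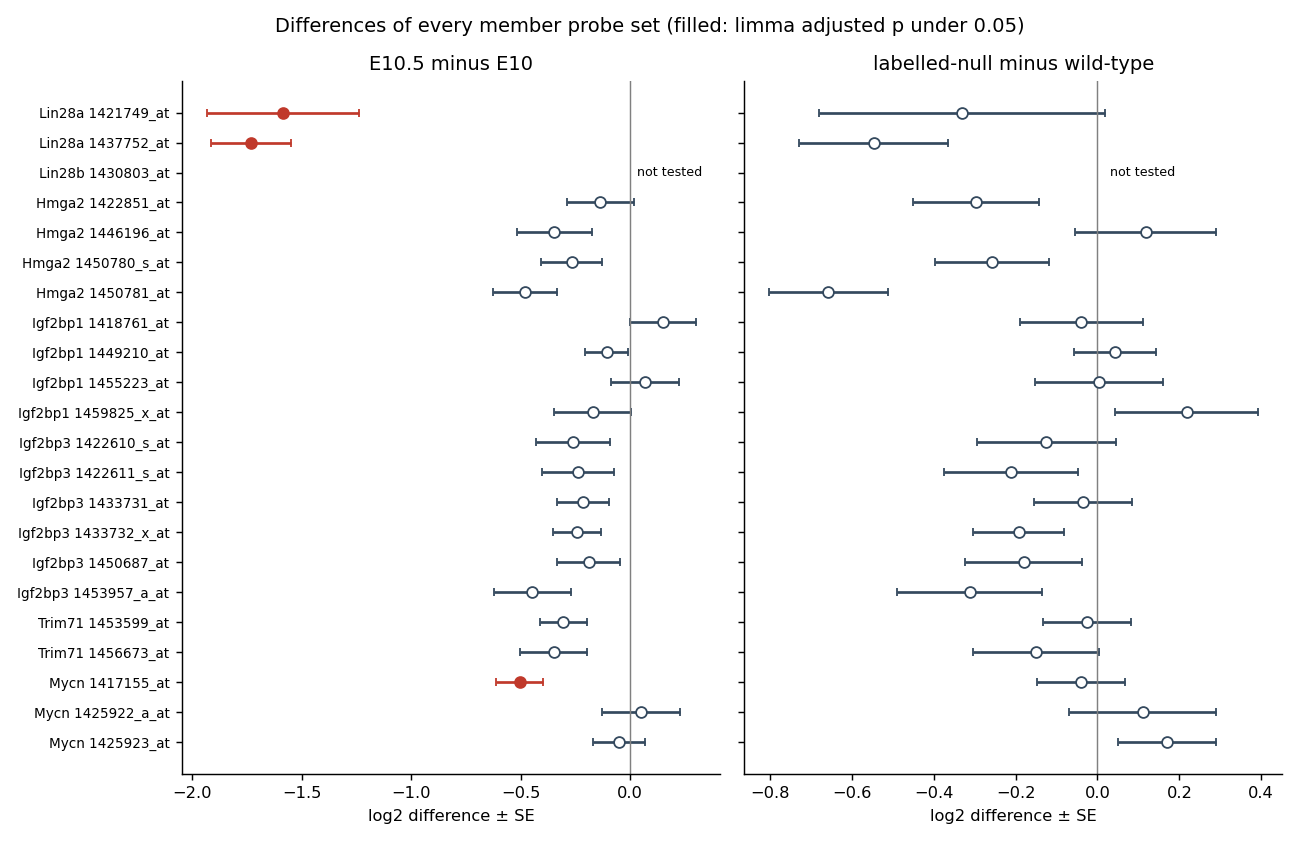
Log2 differences (x axis) with SE bars for each member probe set (rows), E10.5 minus E10 on the left and labelled-null minus wild-type on the right, from limma fits to the 8 vesicle arrays. Filled points passed at an adjusted p under 0.05: both Lin28a probe sets and Mycn 1417155_at for stage, and none for genotype.

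**Figure D3:**
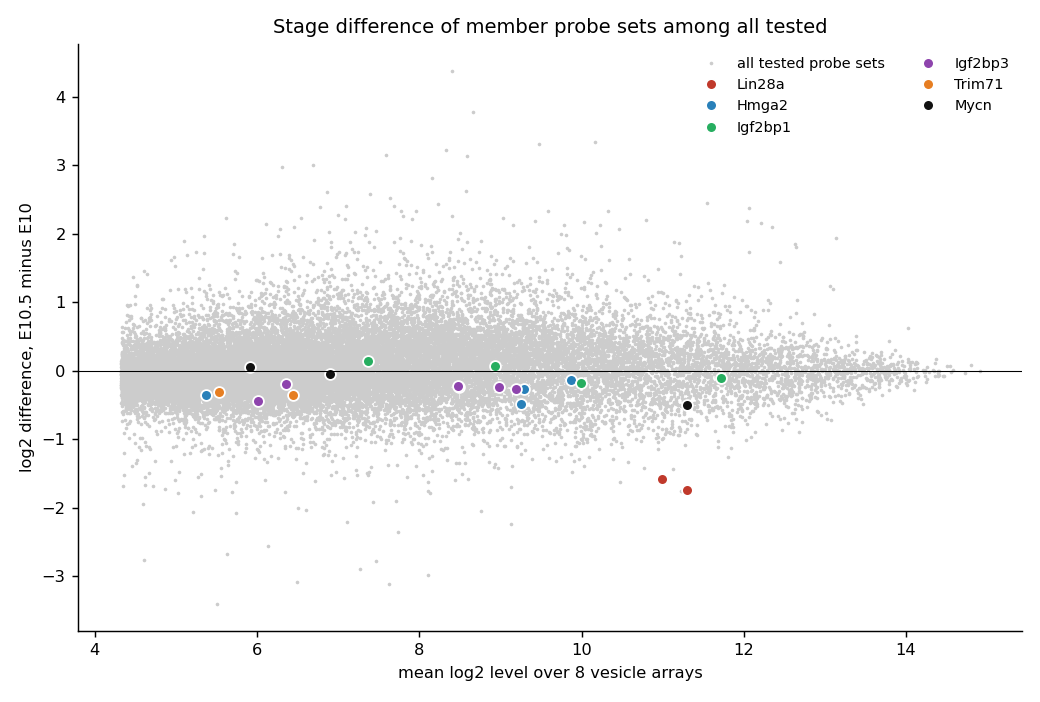
E10.5 minus E10 log2 difference (y axis) against the mean log2 level over the 8 vesicle arrays (x axis), with 1 grey point for each of 33775 tested probe sets and members in colour. The Lin28a probe sets lie at -1.73 and -1.58, and the other members lie between -0.505 and 0.15.

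Marker genes of several cell types differed with stage in these pools. The marker counts below are of genes that passed, against 4.8% of all probe sets higher and 4.58% lower. The 6 tested blood markers all rose, with a mean log2 level over the list of 10.00 to 11.25 at E10.5 and 7.92 to 8.96 at E10. Of 8 markers of otic neuroblasts and neurons, 6 rose (mean level 8.24 to 8.68 at E10.5 and 6.82 to 7.72 at E10), as did 3 of 10 of periotic mesenchyme (6.56 to 6.99 and 6.08 to 6.77) and 2 of 8 of endothelium (5.67 to 5.98 and 5.25 to 5.47). Of 6 tested fibroblast-like markers, 4 rose, the collagens Col1a1 and Col1a2 with Postn and Vim (mean level over the list 7.44 to 7.54 at E10.5 and 6.91 to 7.12 at E10). Of 8 otic epithelial markers, Oc90, Fbxo2 and Sox10 rose and Pax8 and Eya1 fell (mean level 9.32 to 9.67 at E10.5 and 8.99 to 9.61 at E10). None of 5 hindbrain markers passed. The part of these shifts in the falls of Lin28a and Mycn was not tested, and in whole vesicles fewer cells that express a gene and less RNA per cell cannot be told apart.

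Eif2s3y also differed by stage, by -1.79 (SE 0.54, limma adjusted p = 0.0701). It was higher in labelled-null vesicles by 1.22 over both stages (SE 0.54, limma unadjusted p = 0.0494) and did not pass that test. At E10.5 Eif2s3y read 4.82 and 5.04 in labelled-null and 3.21 and 3.45 in wild-type vesicles. At E10 its levels overlapped between genotypes. With its level as a covariate, Lin28a 1437752_at kept its call with a difference of -1.49 (limma adjusted p = 0.0406), while the difference of 1421749_at was -1.11 (limma adjusted p = 0.277) and that of Mycn 1417155_at was -0.39 (limma adjusted p = 0.192). The Hmga2 probe sets 1422851_at, 1450780_s_at and 1446196_at differed by -0.505, -0.546 and -0.105 in that fit (limma adjusted p = 0.125, 0.119 and 0.846).

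Between genotypes, no member passed the test over both stages in limma, 0 of 21, and 2 had an unadjusted p under 0.05. Over the array 2 of 33775 probe sets passed (0.00592%), and 1243 had an unadjusted p under 0.05 (3.68%). The members were lower in labelled-null vesicles on 15 of 21 probe sets, against 49.7% of all, with a median of -0.125 against 0 over all. The chromatin protein Hmga2 had the lowest unadjusted p. Its 1450781_at values, given above, lay below wild-type in both labelled-null arrays at each stage, with a difference of -0.66 over both stages (SE 0.15, 95% interval -0.986 to -0.329, limma unadjusted p = 0.00138, adjusted p = 0.522).

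That Hmga2 difference was -0.795 at E10.5 and -0.52 at E10 (SE 0.21 each). Of the other Hmga2 probe sets, 1422851_at and 1450780_s_at were lower in labelled-null vesicles at E10.5 without overlap and overlapped at E10. Over both stages their differences were -0.30 and -0.26 (SE 0.15 and 0.14, limma adjusted p = 1 each). Values for 1422851_at were 9.70 and 9.47 in labelled-null and 10.11 and 9.93 in wild-type vesicles at E10.5, and 9.82 and 9.90 in labelled-null and 9.73 and 10.31 in wild-type vesicles at E10. The dimmest Hmga2 probe set, 1446196_at, went the other way, with overlap at both stages. It read 5.48 and 5.16 in labelled-null and 4.81 and 5.32 in wild-type vesicles at E10.5, against 5.75 and 5.31 in labelled-null and 5.71 and 5.39 in wild-type vesicles at E10, a difference of 0.118 over both stages (SE 0.17, limma adjusted p = 1). The probe sets of this gene therefore disagreed. With Eif2s3y as a covariate the genotype difference was -0.507 for 1450781_at, -0.047 for 1422851_at, -0.068 for 1450780_s_at and -0.047 for 1446196_at (limma adjusted p = 0.397 to 0.945).

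Lin28a on 1437752_at was also lower in labelled-null vesicles at each stage without overlap, with a difference of -0.55 over both stages (SE 0.18, 95% interval -0.96 to -0.135, limma unadjusted p = 0.0148, adjusted p = 1). The difference was -0.19 at E10.5 and -0.905 at E10 (SE 0.21 each). On 1421749_at it was -0.33 over both stages (SE 0.35, limma adjusted p = 1), and without labelled-null E10 replicate 2 it turned to 0.064. With Eif2s3y as a covariate these differences were -0.715 and -0.655 (limma adjusted p = 0.380 and 0.601). Together with Igf2bp3 1433732_x_at, 3 member probe sets were lower without overlap at both stages, against 2.75% of all tested.

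The other 15 members lay between -0.31 and 0.22 in the genotype comparison. No marker passed this test, and 49.7% of all probe sets were lower by any size. All 6 blood markers and all 8 neuronal markers were higher in labelled-null vesicles (medians 0.66 and 0.37). Lower were 9 of 10 mesenchymal (median -0.29), 7 of 8 endothelial (-0.11) and 4 of 6 fibroblast-like markers (-0.11). Otic epithelial markers split, 4 lower and 4 higher (median -0.02), and of 5 hindbrain markers 2 were lower and 3 higher. The part of these marker differences in the genotype differences of the members was not tested.

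In 2B1 cells no probe set passed the Dlx5 against empty vector test in limma, 0 of 33762 and 0 of 16 tested members, while 3547 had an unadjusted p under 0.05. Of the members 2 did so, both higher with Dlx5, against 7.3% of all probe sets in that direction. Both Lin28a probe sets, Lin28b, Mycn 1417155_at, and Igf2bp3 1450687_at and 1453957_a_at were below the filter in 2B1 cells and were not tested. Lin28a 1437752_at read 3.07 and 2.80 with Dlx5 and 3.03 and 2.93 with empty vector. Its 1421749_at read 3.34 and 3.79 against 4.09 and 3.66, and Mycn 1417155_at read 3.76 and 3.87 against 3.74 and 3.55. Igf2bp1 1449210_at read 11.75 and 11.75 with Dlx5 and 11.11 and 11.49 with empty vector (difference 0.45, SE 0.18, 95% interval 0.02 to 0.88, limma adjusted p = 0.471). Igf2bp3 1422610_s_at read 8.80 and 8.75 with Dlx5 and 8.23 and 8.51 with empty vector (difference 0.405, SE 0.17, limma adjusted p = 0.472). Both were higher with Dlx5 without overlap, as were 24.9% of all tested probe sets. Over all 22 member probe sets, 3 were higher without overlap, with the untested Mycn 1417155_at, and 2 were lower, of Trim71 and Igf2bp3. Trim71 1456673_at read 4.49 and 4.83 with Dlx5 and 5.03 and 4.84 with empty vector. The untested Igf2bp3 1453957_a_at read 3.51 and 3.17 against 3.87 and 3.63. The share of all probe sets lower without overlap was not counted. Without empty vector replicate 1 the differences were 0.26 for Igf2bp1 and 0.265 for Igf2bp3 (limma adjusted p = 0.417 each), and with quantile normalization they were 0.376 and 0.253 (limma adjusted p = 0.388 and 0.411). The other 14 tested members lay between -0.40 and 0.425.

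Members held different places in the cell line and in vesicles. Since the array sets appear to have been normalized separately, each probe set was placed by its percentile within its own array, as a description. Lin28a lay at percentiles 3.5 to 7.6 on 1437752_at and 12.2 to 23.7 on 1421749_at in 2B1 cells, against 92.9 to 98.7 and 91.9 to 98.4 in vesicles. Mycn 1417155_at lay at 15.3 to 21.3 in 2B1 cells and 95.1 to 97.0 in vesicles, while the other Mycn probe sets held similar places in both. Lin28b was at 0.1 to 0.9 in 2B1 cells and 0.0 to 2.2 in vesicles.

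Of the Hmga2 probe sets 3 of 4, and part of the Igf2bp set, had high places in both. Hmga2 1422851_at lay at 92.4 to 93.6 in 2B1 cells and 89.9 to 92.8 in vesicles, and 1450780_s_at and 1450781_at at 86.2 to 91.0 in 2B1 cells and 83.9 to 91.1 in vesicles. Hmga2 1446196_at lay lower, at 26.2 to 35.9 in 2B1 cells and 34.9 to 50.1 in vesicles. Igf2bp1 1449210_at lay at 97.1 to 97.9 in 2B1 cells and 96.7 to 97.2 in vesicles, but 1455223_at of the same gene lay at 43.0 to 57.6 and 85.6 to 87.3. Igf2bp3 1422610_s_at lay at 87.4 to 89.0 in 2B1 cells and 85.8 to 89.5 in vesicles, and its 1453957_a_at at 8.9 to 19.6 and 41.4 to 63.5. The 2 Trim71 probe sets lay between 33.9 and 42.1 in 2B1 cells and between 44.1 and 69.7 in vesicles. The cell line also had a high mean level of fibroblast-like markers, 9.93 to 10.15 on its own arrays, and 5.72 to 5.92 for otic epithelial markers.

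**Figure D4:**
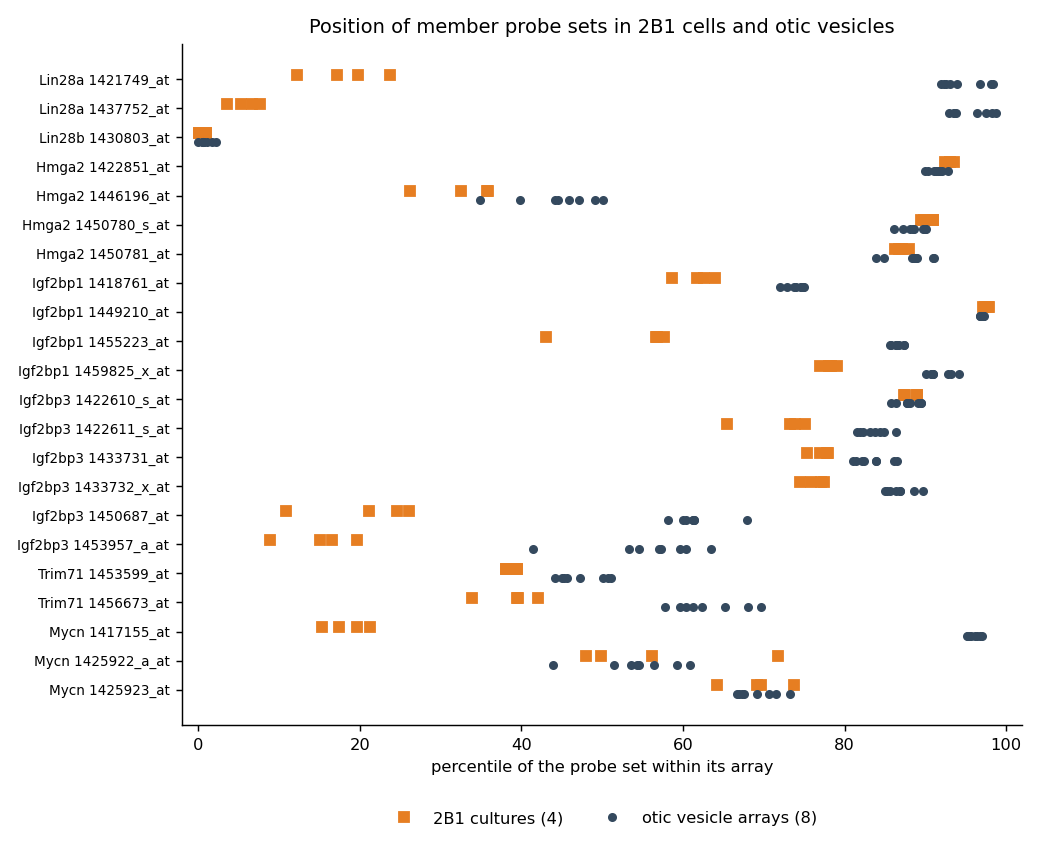
Percentile of each member probe set among all probe sets of its own array (x axis), with squares for the 4 arrays of 2B1 cells and circles for the 8 vesicle arrays. Lin28a and Mycn 1417155_at lie above 91 in vesicles and below 24 in 2B1 cells, and Hmga2 1422851_at and Igf2bp1 1449210_at lie near or above 90 in both.

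The neighbouring steps of the pathway were read from lists of genes, with the brightest probe set for each gene. The shares beside them are over all probe sets, and nothing particular to a list is read from its counts. Of 17 genes of let-7 processing and decay, 12 were lower by any size, against 53.7% (median -0.11 against 0.02 over all genes). Past the threshold, 2 fell with stage and none rose, against 4.58% and 4.8%. Those that fell were Tent2, a poly(A) polymerase that can add single uridines to let-7 precursors (difference -0.86, SE 0.17, limma adjusted p = 0.0159), and Hnrnpa1, an RNA-binding protein that acts on let-7 processing (difference -0.63, SE 0.13, limma adjusted p = 0.0229). Dis3l2, the exonuclease that degrades uridylated let-7 precursors, differed by 0.60 (limma adjusted p = 0.0659), and Tarbp2, a partner of Dicer, by 0.42 (limma adjusted p = 0.0991).

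Of 30 tested genes known as let-7 targets, 18 were lower by any size, against 53.7% of all probe sets (median -0.10). Past the threshold, 3 fell and none rose, against 4.58% and 4.8%. These were Lin28a and Mycn, members described above, and Nr6a1, the orphan receptor GCNF, which fell by 1.525 (SE 0.18, limma adjusted p = 0.00316). Acvr1b, an activin receptor, differed by 0.68 and did not pass (limma adjusted p = 0.0940).

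Of 18 Myc family genes, partners and targets, 4 fell and 1 rose (median -0.04), against 4.58% and 4.8% of all probe sets. The nucleolar proteins Ncl, Npm1 and Nop56 fell, with differences of -1.03, -0.55 and -0.46 (limma adjusted p = 0.0106, 0.0243 and 0.0431), beside Mycn. Mxd4, which opposes Myc at shared binding sites, rose by 1.16 (SE 0.24, limma adjusted p = 0.0202).

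Of 11 tested pluripotency and progenitor genes, 2 fell and 1 rose (median -0.06), against 4.58% and 4.8% of all probe sets. Prtg, a cell-surface protein of early neural tissue, fell by 1.75 (SE 0.17, limma adjusted p = 0.00169), and Sox2, which maintains progenitors, fell by 0.595 (SE 0.12, limma adjusted p = 0.0188). Otx2, a homeodomain factor of the ventral vesicle, rose by 1.74 (SE 0.36, limma adjusted p = 0.0210). The de novo methyltransferase Dnmt3b differed by -0.43 (limma adjusted p = 0.0917).

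Of 15 tested fetal and imprinted growth genes, 2 rose and none fell (median 0.15), against 4.8% and 4.58% of all probe sets. Cdkn1c, an imprinted inhibitor of cyclin-dependent kinases, rose by 0.758 (SE 0.19, limma adjusted p = 0.0367), and Dlk1, a Notch-related ligand, by 0.438 (SE 0.12, limma adjusted p = 0.0467). Gpc4 and Igf2 differed by 0.705 and 0.678 and did not pass (limma adjusted p = 0.0725 and 0.0761). No gene of any of these lists passed in the labelled-null, interaction or 2B1 comparison, and the lowest adjusted p in the labelled-null comparison that was not of a member was that of Sox2 (difference -0.53, SE 0.12, limma adjusted p = 0.571).

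**Figure D5:**
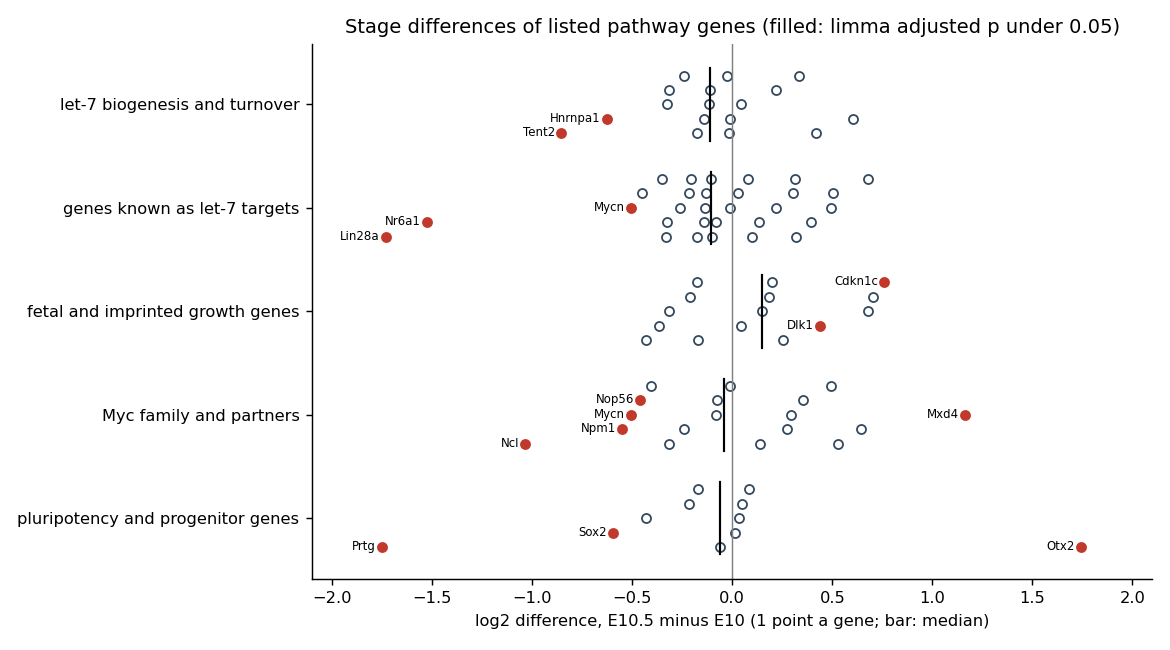
E10.5 minus E10 log2 differences (x axis) of listed genes by pathway (rows), 1 point per gene with a bar at the list's median; filled and named points passed at a limma adjusted p under 0.05. Lin28a, Nr6a1 and Prtg lie at or below -1.52, and Otx2 and Mxd4 above 1.

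The genes whose pattern over the 8 vesicle arrays was most like that of Lin28a 1437752_at, by Pearson's r, were Cables1 (0.998), Kpna2 (0.994), 2700046A07Rik (0.993), Mtap (0.990) and Eed (0.990). Those most like Hmga2 1422851_at were Tsg101 (0.980), Pdpk1 (0.972), Twsg1 (0.967), Homez (0.960) and Clpx (0.958). Those most like the dim Lin28b probe set were Tmem199 (0.943), Fbxo3 (0.896), Cfp (0.887), Luc7l (0.879) and Man2a2 (0.875). The points share the stage difference and the array effects, and the r values are descriptions over 8 arrays. Each 5 were the highest among all genes tested, so their r values are high by selection. The Lin28b probe set spanned only 2.19 to 2.60 in vesicles, below the filter, so its pattern may be noise.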

How the data were processed

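The deposited table holds log2 expression values, and the authors used RMA and Affymetrix Expression Console, per the submitters' processing notes, which give no versions. Vesicle arrays had means of 6.10 to 6.11 and 2B1 arrays of 5.76 to 5.82, so the sets appear to have been normalized separately, and no level was tested across them. No pair of arrays shared more than 2.78% of values. Scan dates and signal over background were not used here, and the number of arrays limits the precision. Of 45101 probe sets, 64 were array controls. GEO's platform annotation gave a single gene for 34958 probe sets, several for 932 and none for 9211. A RefSeq table (GRCm38.p6) brought symbols up to date, 34754 through gene identifiers and 1 through an accession, and 203 stayed as listed.

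Differences were fitted per probe set by lmFit and eBayes of limma 3.58.1 (R 4.3.3), leaving out the lowest 25% by mean, with Benjamini-Hochberg adjustment over 33775 probe sets in vesicles and 33762 in 2B1 cells and a threshold of 0.05. Stage was fitted with genotype, and genotype with stage, as covariate (5 residual degrees of freedom). Interaction and within-group differences came from the 4 group means (4 residual degrees of freedom), and the 2B1 fit had 2. These vesicle comparisons share arrays. The fits were run on simulated arrays with planted differences and independent noise, to check that the planted sizes were recovered. Those arrays had no shared replicate effect, so the run does not measure error rates in these data. Replicates are separate pools or cultures per the labels, which conflict at E10.5. There the arrays titled replicate 2, in each genotype, are described elsewhere in their labels as replicate 1. The titles were followed here, and whether these arrays came from separate pools was not tested.

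The members and lists were chosen with earlier results of these data known. The text names every member, Dlx5 and Eif2s3y, the genes of each list that passed (up to 6, filled to 4 by size for stage), and the 5 genes most like Lin28a, Lin28b and Hmga2. Same-numbered replicates were not shown to be paired: their deviations correlated at 0.682 between genotypes at E10, 0.027 at E10.5 and -0.120 in 2B1 cells. Alternatives were no filter, an intensity trend, quantile normalization, a replicate block, Eif2s3y as covariate, leaving out each array, and leaving out both E10 replicate 1 arrays, the last chosen after the data were seen.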

Additional observations from a re-analysis of the deposited data

How the results depend on the processing

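Lin28a 1437752_at kept its stage call in all 14 alternatives, with differences from -1.902 to -1.487 (limma adjusted p = 0.000539 to 0.0406). Lin28a 1421749_at and Mycn 1417155_at kept their direction and each lost the call in 6 of 14, 5 of them single arrays left out and 1 the Eif2s3y covariate. The 3166 stage calls became 368 with that covariate and 763 to 5836 with 1 array left out, and the 3 member calls became 1 with that covariate, 6 with quantile normalization, 6 without both E10 replicate 1 arrays and 1 to 4 with 1 array left out. The 2 labelled-null calls became 11 with an intensity trend, 4 with quantile normalization, 0 with the covariate (3400 at an unadjusted p under 0.05), 35 without both E10 replicate 1 arrays and 0 to 17 with 1 array left out, and no member was called in any of them (2 to 7 unadjusted). With the replicate block the labelled-null calls became 19 and the stage calls 3361, and no member's call changed. That block was 1 term per stage in the genotype fit, but 1 term shared by both stages in the stage and interaction fits. Replicate deviations correlated at -0.489 to -0.063 between E10 and E10.5 groups, so the shared term is a weak check on the E10 replicate difference. The interaction gave 1 call with the trend and 0 otherwise, and the 2B1 test 0 throughout. The Lin28a 1421749_at genotype difference ran from -0.696 to 0.064 with 1 array left out, and its interaction from -0.810 to 1.09, and -0.068 with the covariate. The Hmga2 1446196_at genotype difference of 0.118 ran from -0.012 to 0.233 with 1 array left out, and was -0.047 with the covariate. Tested members whose difference in a comparison was not given singly above also changed sign under some alternative. This held in 5 of 10 cases for stage, 9 of 15 for genotype, 11 of 19 for the interaction and 10 of 14 in 2B1 cells. The cause of these changes was not tested. With 2 arrays a group, a difference that missed the threshold is not shown to be absent.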
